A study of Mus musculus with 17 samples.

Results

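The genes studied carry or control sodium and potassium transport along the nephron, and were followed in kidney RNA of 17 mice. They were the rows of the expression table with the symbols Slc9a3, Slc12a1, Slc12a3, Umod, Scnn1a, Scnn1b, Scnn1g, Wnk1, Wnk4 and Kcnj1, and all 10 members were present among 22558 genes. The Ctrl group held 5 male C57BL/6 mice, labelled WT, that received saline. The Case group held 6 male mice of the strain BKS.Cg-Dock7m +/+ Leprdb/J (db/db), which lack a working leptin receptor and become obese and diabetic, also on saline. The Dapa group held 6 male db/db mice of that strain given dapagliflozin, an inhibitor of the glucose carrier SGLT2 of the proximal tubule, at 1 mg/kg/day. Treatment ran for 6 weeks from 8 weeks of age. Ctrl differed from the other groups in strain as well as in the receptor gene, so strain and diabetes cannot be told apart. One library was made from each kidney, with 13039535 to 17779635 counted reads, of which mitochondrial genes took 17.9% to 20.4% in Ctrl, 19.8% to 27.3% in Case and 19.7% to 27.6% in Dapa. Leaving those genes out gave the same number of members past the test in each comparison, and the part of that share in the member values was not otherwise tested. The 10 members had 455 to 89542 reads per mouse, so counting error was small beside the spread between mice.

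The kidney filters sodium freely and takes nearly all of it back, segment by segment. The proximal tubule does so with the sodium-proton exchanger NHE3 (Slc9a3). The thick ascending limb does so with NKCC2 (Slc12a1), next to the potassium channel ROMK (Kcnj1), and it secretes uromodulin (Umod) into the urine. The distal convoluted tubule uses NCC (Slc12a3), which the kinases WNK1 and WNK4 switch on through SPAK (Stk39). The last step is the epithelial sodium channel ENaC of the connecting tubule and collecting duct, built from the subunits alpha (Scnn1a), beta (Scnn1b) and gamma (Scnn1g), where ROMK also secretes potassium. Values below are FPKM, reads per kilobase of gene scaled to library size. Levels of different genes depend on the gene length used. In Ctrl replicate 1, Scnn1a had 596 reads at 3.31 FPKM and Scnn1g 523 reads at 10.8 FPKM. Overlap of mice was judged on FPKM, without the TMM factors that scaled the libraries in the tests. Over all 17 libraries these were 0.904 to 0.993 in Ctrl, 0.944 to 1.10 in Case and 0.976 to 1.07 in Dapa. Overlap can differ on that scale. In whole kidney, fewer cells of a type and less RNA per cell cannot be told apart.

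Each ENaC subunit was higher in Dapa than in Ctrl. The genes of the beta and gamma subunits lie near each other on chromosome 7, in mm10 at 121865038 to 121918514 (Scnn1b) and 121734479 to 121768475 (Scnn1g), on the plus strand. Scnn1a lies on chromosome 6 at 125320659 to 125344943. The 250 bases before the RefSeq start of Scnn1g (chr7:121734229-121734478, plus strand, GRCm38.p6) and of Scnn1b (chr7:121864788-121865037, plus strand) are shown because these 2 genes moved together. The stretch before Umod (chr7:119479263-119479512, minus strand) is shown beside them as that of a gene of another segment. Capitals mark the GC box, GGGCGG on either strand. In Umod they mark the CCAAT box and the HNF1 half-site, GTTAAT.
Scnn1g: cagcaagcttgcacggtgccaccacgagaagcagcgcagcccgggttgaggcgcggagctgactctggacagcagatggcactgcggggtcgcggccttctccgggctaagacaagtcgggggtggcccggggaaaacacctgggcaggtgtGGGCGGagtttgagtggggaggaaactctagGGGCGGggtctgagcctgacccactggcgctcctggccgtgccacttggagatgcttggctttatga
Scnn1b: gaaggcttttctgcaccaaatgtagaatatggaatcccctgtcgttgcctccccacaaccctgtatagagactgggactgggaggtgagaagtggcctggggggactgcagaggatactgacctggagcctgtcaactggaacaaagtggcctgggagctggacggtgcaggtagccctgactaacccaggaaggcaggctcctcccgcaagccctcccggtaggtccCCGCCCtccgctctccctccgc
Umod: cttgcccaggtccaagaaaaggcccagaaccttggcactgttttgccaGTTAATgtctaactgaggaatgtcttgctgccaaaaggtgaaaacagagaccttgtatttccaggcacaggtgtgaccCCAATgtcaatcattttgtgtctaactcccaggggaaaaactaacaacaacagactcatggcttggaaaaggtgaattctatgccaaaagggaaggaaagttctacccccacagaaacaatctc
Promoters from RefSeq were used for 9 of the 10 members, and that of Scnn1a was not analysed here. A GC box stood in 6 of the 9 (Scnn1g, Scnn1b, Slc9a3, Slc12a3, Wnk1 and Wnk4) and in 32.7% of 32851 promoters of the mouse. The CCAAT box stood in Slc12a1, Umod, Slc12a3 and Kcnj1, and in 33.8% of all promoters. The HNF1 half-site was found in Umod alone of the 9, and in 6.43% of all promoters. The TATA box TATAAA stood in Slc12a3 alone (12.4% of all) and the steroid receptor half-site AGAACA in Kcnj1 alone (16.1% of all), all counted on both strands. The stretch used for Kcnj1 (chr9:32393735-32393984, plus strand) lies inside the gene, which spans 32372418 to 32399192, and not before its first base. The GC content was 65.2% before Scnn1g and 60.8% before Scnn1b, against 45.2% before Umod, which held no CpG (median of all promoters 52.4% and 6 CpG). These matches are letters and not tested sites.

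Scnn1a, the subunit that the channel cannot do without, was at 3.31, 5.10, 6.46, 9.44 and 7.19 FPKM in the 5 Ctrl mice. In Case its lowest, median and highest values were 9.53, 10.8 and 16.6 FPKM, and in Dapa 12.3, 16.3 and 21.9 FPKM. In FPKM every Case mouse and every Dapa mouse stood above every Ctrl mouse, while Case and Dapa overlapped. Scnn1b was at 7.17, 9.17, 6.89, 8.14 and 7.68 FPKM in Ctrl, at 9.603, 10.4 and 12.6 FPKM in Case (lowest, median, highest) and at 11.7, 14.1 and 14.8 FPKM in Dapa. Here too the Ctrl mice lay below all others. Scnn1g was at 10.8, 13.3, 12.2, 12.7 and 10.5 FPKM in Ctrl, at 12.2, 14.6 and 17.1 FPKM in Case and at 16.3, 17.97 and 22.1 FPKM in Dapa. The Case mice overlapped Ctrl for the gamma subunit, and the Dapa mice did not.

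**Figure D1:**
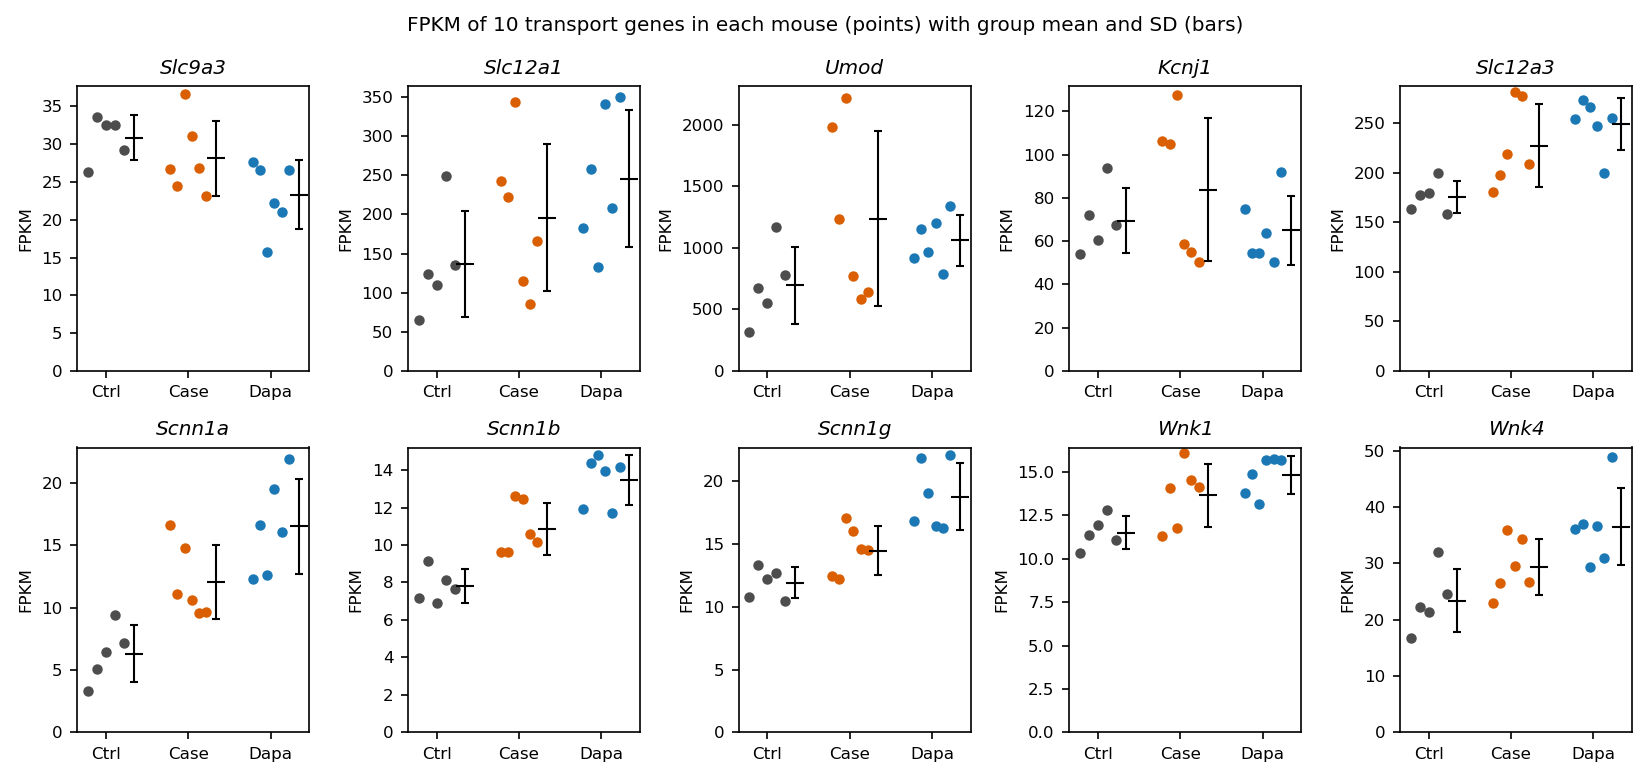
FPKM of the 10 members in each mouse, with a point for each mouse, a black bar for the group mean and whiskers for 1 SD (Ctrl n = 5, Case n = 6, Dapa n = 6), on axes that start at 0. The group means of the ENaC subunits are lowest in Ctrl and highest in Dapa, with all 6 Dapa mice above all 5 Ctrl mice, although no subunit passed in Dapa against Case nor Scnn1g in Case against Ctrl, and Slc12a1, Umod and Kcnj1 scatter widely within each group.

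The first comparison, Case against Ctrl, asked which genes differ in the diabetic kidney. Of the 10 members, 2 passed the threshold of an adjusted p (q) of 0.05 in edgeR's quasi-likelihood test, and both were higher in Case, against 13.0% of all 14582 genes tested (6.09% higher and 6.91% lower). Scnn1a was higher by 0.86 on the log2 scale (SE 0.22, q = 0.0238 from edgeR), and Scnn1b by 0.39 (SE 0.10, q = 0.0230 from edgeR). In FPKM both also had no overlap between the groups, lying higher in Case, as did 4.97% of all genes. The gaps were narrow. Scnn1a was at 9.44 FPKM in Ctrl replicate 4 (TMM factor 0.993) and 9.53 in Case replicate 5 (1.01). Scnn1b was at 9.17 FPKM in Ctrl replicate 2 (0.945) and 9.603 in Case replicate 2 (1.02). Divided by these factors, both pairs change order, so the separation does not hold on the scale of the test. Scnn1g had a log2 fold change of 0.20 (SE 0.10, q = 0.216 from edgeR). None of the members passed the fold above 2 between mean FPKM that the study added, which 3.79% of all genes passed together with q. Without Ctrl replicate 3, whose adipocyte markers stood out, no member was called (Scnn1a q = 0.0543, Scnn1b q = 0.0668 from edgeR). The log2 fold change of Scnn1a was 0.88 there. Calls over all genes fell as well, from 1895 to 1002 without this mouse. They were 1160, 1150 and 1125 without Ctrl replicate 1, 2 and 5 in that order. Scnn1a also lost its call without Ctrl replicate 2 (q = 0.0635 from edgeR), and Scnn1b without Ctrl replicate 1 (q = 0.0558) or 5 (q = 0.0627) and with a term for the 7 libraries named in the methods (q = 0.0856).

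The other 8 members did not pass in this comparison. Slc12a1, the main sodium carrier of the thick ascending limb, had a log2 fold change of 0.44 (SE 0.35) and Umod of 0.75 (SE 0.38). Kcnj1 had 0.18 (SE 0.23). Slc12a3, the sodium carrier of the distal convoluted tubule and the target of thiazides, had 0.30 (SE 0.13, unadjusted p = 0.0376, q = 0.146 from edgeR). Wnk1 had 0.17 (SE 0.11) and Wnk4 0.25 (SE 0.14). Slc9a3 was the 1 member of the 10 with a negative value, where 54.3% of all genes lay above 0, at -0.22 (SE 0.10, q = 0.185 from edgeR). At an unadjusted p under 0.05 there were 3 of the 10 members, and 28.7% of all genes. The median over the 10 members was 0.27, beside 0.03 over all genes tested.

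The second comparison, Dapa against Case, asked what the drug changed in the diabetic kidney. No member had a q under 0.05 in edgeR's quasi-likelihood test, as no gene of the 14573 tested did (0.00%). DESeq2 and edgeR's exact test also called no member, although they called 202 and 129 genes. At an unadjusted p under 0.05 there were 5 of the 10 members, and 12.9% of all genes. They were Scnn1g (log2 fold change 0.35, SE 0.11, q = 0.250 from edgeR), Scnn1b (0.30, SE 0.10, q = 0.259), Scnn1a (0.43, SE 0.17, q = 0.305), Wnk4 (0.30, SE 0.13, q = 0.361) and Slc9a3 (-0.29, SE 0.13, q = 0.375). The values of the remaining members were 0.31 for Slc12a1 (SE 0.31), 0.11 for Slc12a3 (SE 0.13), 0.09 for Wnk1 (SE 0.11), -0.23 for Umod (SE 0.30) and -0.38 for Kcnj1 (SE 0.23). Values above 0 were held by 7 of the 10 members, and by 48.8% of all genes, with a median of 0.20 beside -0.01. No member had all Dapa mice above all Case mice, as 0.316% of all genes had. With SEs of this size, small changes of Umod or Slc12a1 were not detectable.

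The third comparison, Dapa against Ctrl, set treated diabetic mice beside the lean strain, and it shares its Dapa and Ctrl mice with the comparisons before it. The threshold was passed by 7 of the 10 members, 6 of them higher in Dapa, against 29.1% of all 14647 genes tested (14.2% higher and 14.9% lower). An unadjusted p under 0.05 was found in 8 of the 10 (41.1% of all genes) and a value above 0 in 8 (51.4%), and the median was 0.53 beside 0.02. Among the called members the ENaC subunits had the highest values. Scnn1a was higher by 1.29 on the log2 scale (SE 0.22, q = 0.00151 from edgeR), a fold of 2.62 between mean FPKM, and was the 1 member above the fold of 2, which 7.18% of all genes passed. Scnn1b was higher by 0.68 (SE 0.10, q = 0.000688 from edgeR) and Scnn1g by 0.55 (SE 0.11, q = 0.00324 from edgeR). All 6 Dapa mice lay above all 5 Ctrl mice for the 3 subunits and for Wnk1, as happened in 9.79% of all genes.

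**Figure D2:**
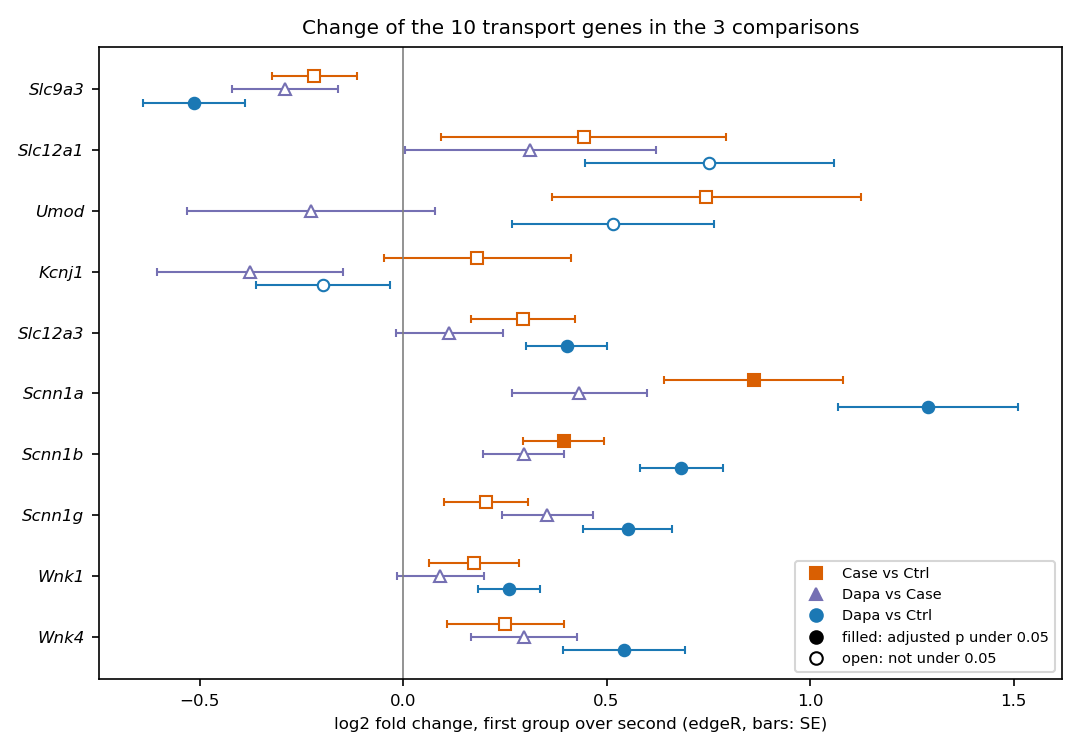
Log2 fold changes of the 10 members from edgeR in the 3 comparisons, with whiskers for 1 SE, filled where q was under 0.05 and open where it was not. Filled points stand for Scnn1a and Scnn1b in Case against Ctrl, for none in Dapa against Case, and for 7 members in Dapa against Ctrl, of which Slc9a3 alone lies left of 0.

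Slc9a3 was the member that fell. It was at 26.3, 33.6, 32.5, 32.6 and 29.3 FPKM in Ctrl, at 23.1, 26.8 and 36.6 FPKM in Case (lowest, median, highest) and at 15.8, 24.4 and 27.6 FPKM in Dapa. In FPKM, 3 Dapa mice lay below all Ctrl mice, and the rest overlapped them. The TMM factor was 0.904 in Ctrl replicate 1, the lowest Ctrl mouse, and 1.03 in Dapa replicate 7, the highest Dapa mouse. On the scale of the test these groups therefore lay farther apart. Its log2 fold change in Dapa against Ctrl was -0.51 (SE 0.13, q = 0.00948 from edgeR), and it kept a q under 0.05 in all 23 alternatives. The proximal tubule markers of the same kidneys were also lower. All 8 had a negative log2 fold change in Dapa against Ctrl, with 6 called (14.9% of all genes were called lower), led by Slc7a13 (-2.46), the endocytic receptor Lrp2 (-1.25) and Slc27a2 (-0.81), and their summed level was 2579 to 3158 FPKM in Ctrl, 1531 to 2697 in Case and 1617 to 2464 in Dapa. In Case against Ctrl these 3 genes were called too, at -3.24, -0.98 and -0.82 in that order. Their part in the values of Slc9a3 was not tested.

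Slc12a3 was at 163, 177, 180, 199 and 159 FPKM in Ctrl, at 181, 213 and 281 FPKM in Case and at 199, 255 and 273 FPKM in Dapa. Above all Ctrl mice stood 5 Dapa mice, and the other, Dapa replicate 11, stood just below the highest of them. The log2 fold change in Dapa against Ctrl was 0.40 (SE 0.10, q = 0.0104 from edgeR). The kinases that switch NCC on were higher as well, Wnk4 by 0.54 (SE 0.15, q = 0.0175 from edgeR) and Wnk1 by 0.26 (SE 0.08, q = 0.0218 from edgeR). Wnk4 had group means of 23.4 ± 5.59 FPKM in Ctrl, 29.3 ± 4.99 in Case and 36.5 ± 6.86 in Dapa (SD). Wnk1 had 11.5 ± 0.938, 13.7 ± 1.80 and 14.8 ± 1.12 FPKM in the same order. The call of Wnk1 was lost without Ctrl replicate 5 (q = 0.0579 from edgeR), without Dapa replicate 10 (q = 0.0503) and with all 3 groups in 1 fit (q = 0.0585). Reads were counted per gene, so the long form of Wnk1 and the short kidney form that lacks the kinase domain were not separated. Exons of Wnk4 and of Umod overlap a gene on the opposite strand. The study's methods describe the libraries as strand-specific, but whether counting used strand is not given in the sources used here.

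Of 5 markers of the distal convoluted tubule, 3 were called in each comparison with Ctrl, all higher, as were 6.09% of all genes in Case and 14.2% in Dapa. Calb1, a calcium-binding protein, was called in Case against Ctrl (1.55) and in Dapa against Ctrl (1.62), as were the sodium-calcium exchanger Slc8a1 (0.95 and 1.15) and the magnesium channel Trpm6 (0.72 and 0.51). Pvalb (0.23 and 0.28) and Tmem52b (0.09 and 0.07) did not pass. In Case against Ctrl, Slc8a1 was called in 24 and Trpm6 in 23 of 27 fits, and in Dapa against Ctrl Trpm6 in 22 of 24. The summed level of the 5 markers was 100 to 154 FPKM in Ctrl, 163 to 346 in Case and 226 to 299 in Dapa. Much of the difference in that sum was Calb1, at 35.8 to 62.2, 91.0 to 225 and 119 to 190 FPKM in the same order. Of the principal cell markers, which share their cells with ENaC, Aqp2 (0.78) and Stc1 (1.00) were called of 6 in Case against Ctrl, while Aqp4 (-0.47) and Aqp3 (-0.14) had values below 0 and did not pass. Aqp2 was called there in 17 of 27 fits. In Dapa against Ctrl, Aqp2 (1.44), Stc1 (0.88) and Gata3 (0.71) were called, Stc1 in 20 of 24 fits and Gata3 in 23. That list summed to 70.4 to 101 FPKM in Ctrl, 89.0 to 168 in Case and 97.0 to 295 in Dapa. Intercalated cell markers were called in 3 of 7 and 5 of 7, all of those called being higher (6.09% and 14.2% of all genes), led by Aqp6 (1.29 and 1.37), with Slc4a1 (0.79 and 0.77) and Atp6v1g3 (0.51 and 0.63), which was called in Case against Ctrl in 21 of 27 fits. Foxi1 had -0.23 in Case against Ctrl and did not pass. Slc4a1 is also a gene of red cells, and the 5 erythrocyte markers were called higher in the same comparisons. The list summed to 85.0 to 109, 115 to 154 and 132 to 166 FPKM in the order of the groups. The part of these cell types in the member values was not tested.

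Of the thick ascending limb members, Slc12a1 was at 64.9, 124, 109, 248 and 136 FPKM in the 5 Ctrl mice, at 85.7, 194 and 344 FPKM in Case and at 132, 234 and 350 FPKM in Dapa. Its coefficient of variation within a group was 49.9%, 48.1% and 35.7%. Umod, with the highest FPKM of the 10 in each group, was at 317, 671, 554, 1167 and 777 FPKM in Ctrl, at 581, 1001 and 2221 FPKM in Case and at 785, 1061 and 1342 FPKM in Dapa. Kcnj1 was at 54.2, 71.8, 60.4, 93.6 and 67.3 FPKM in Ctrl, at 50.4, 81.8 and 128 FPKM in Case and at 50.5, 59.1 and 92.0 FPKM in Dapa. All 3 genes overlapped between all groups. In Dapa against Ctrl their log2 fold changes were 0.75 for Slc12a1 (SE 0.30, q = 0.0789 from edgeR), 0.51 for Umod (SE 0.25, q = 0.136) and -0.20 for Kcnj1 (SE 0.16, q = 0.391). Ctrl replicate 4 was the highest Ctrl mouse for all 3. Without it Slc12a1 had 1.06 (q = 0.0141 from edgeR) and Umod 0.76 (q = 0.0238). Slc12a1 also passed without Dapa replicate 9 (q = 0.0422), with edgeR's exact test (q = 0.0486) and with limma on log2(FPKM + 0.1) (q = 0.0494). Of the 7 markers of this segment, Sostdc1 (0.52) was higher and Egf (-0.50) lower in Case against Ctrl (13.0% of all genes were called there and 29.1% in Dapa against Ctrl), and Ptger3 (1.32), Sostdc1 (0.92) and Ppp1r1a (0.62) were higher in Dapa against Ctrl, where Egf (-0.29) and Cldn10 (-0.17) had values below 0 and did not pass. Several of these calls were narrow, since Sostdc1 (q up to 0.150) and Egf (q up to 0.141) were called in 13 and 19 of 27 fits in Case against Ctrl, and Ppp1r1a (q up to 0.0986) in 15 of 24 in Dapa against Ctrl. Their sum was 205 to 373 FPKM in Ctrl, 221 to 373 in Case and 251 to 418 in Dapa.

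Mice with much Slc12a1 also had much Umod, Kcnj1 and Scnn1a. Correlations were computed over all 45 pairs of members and 17 mice, on each mouse's deviation from its group mean of log2 FPKM, with 100000 permutations of the mice within their groups. There were 8 pairs with a Benjamini-Hochberg adjusted p under 0.05, all positive. Slc12a1 and Umod had r = 0.88 and rho = 0.89 (permutation p = 0.00010 and 2e-05, adjusted 0.00146 and 0.00090), and r = 0.83 without the 2 mice farthest from the median. Slc12a1 and Scnn1a had r = 0.85 and rho = 0.86 (permutation p = 0.00013 and 9e-05, adjusted 0.00146 and 0.00135), and r = 0.83 without those 2 mice. Slc12a1 and Kcnj1 had r = 0.77 and rho = 0.78 (permutation p = 0.00130 and 0.00129, adjusted 0.0117 and 0.0116), and r = 0.72 without 2 mice. These 3 relations held among the 7 libraries of the possible batch (r = 0.93, 0.95 and 0.84) and among the other 10 (r = 0.84, 0.76 and 0.73).

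**Figure D3:**
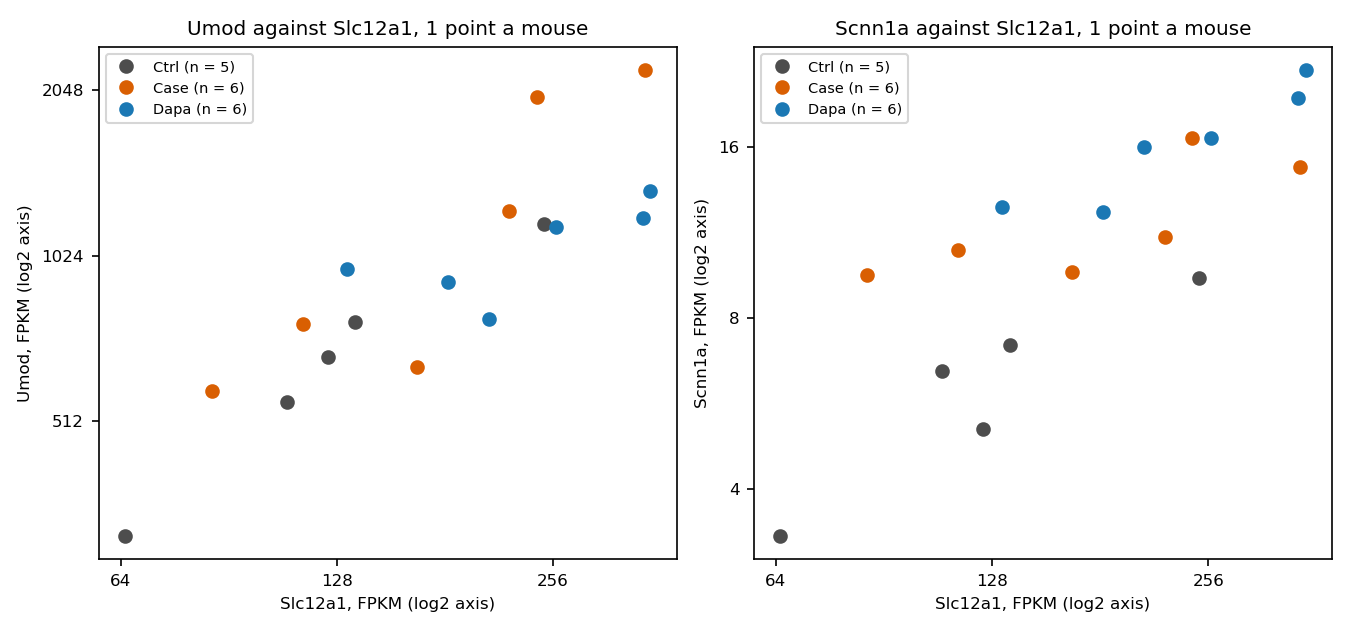
Umod (left) and Scnn1a (right) against Slc12a1 in FPKM on log2 axes, with 1 point for each of the 17 mice. Umod follows Slc12a1 in all 3 groups, and at a like level of Slc12a1 the Case and Dapa mice lie above the Ctrl mice for Scnn1a.

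Of the ENaC subunits, Scnn1b and Scnn1g went together (r = 0.76, rho = 0.73, permutation p = 0.00207 and 0.00236, adjusted 0.0155 and 0.0177), with r = 0.68 without the 2 farthest mice and 0.56 and 0.85 within the 7 and the 10 libraries. Their r with Slc12a1 was 0.18 for Scnn1b (permutation p = 0.532, adjusted 0.684) and 0.15 for Scnn1g (permutation p = 0.569, adjusted 0.692), with rho of 0.24 and 0.15 (permutation p = 0.385 and 0.595, adjusted 0.577 and 0.749), where Scnn1a had 0.85. Within the 7 and the 10 libraries they were 0.67 and 0.10 for Scnn1b, and 0.38 and 0.12 for Scnn1g. Scnn1a had r = 0.15 with Scnn1b and 0.17 with Scnn1g (permutation p = 0.596 and 0.523, adjusted 0.706 and 0.684). The differences between these correlations were not tested. The other pairs were Umod with Kcnj1 (r = 0.87, rho = 0.88), Umod with Scnn1a (0.84, 0.83), Scnn1a with Kcnj1 (0.63, 0.64) and Slc9a3 with Wnk4 (0.62, 0.67), with adjusted permutation p of 0.00146, 0.00146, 0.0308 and 0.0480 for r and 0.002025, 0.00135, 0.0387 and 0.0358 for rho. Without 2 mice their r was 0.85, 0.80, 0.59 and 0.53. Among the 7 libraries it was 0.89, 0.94, 0.80 and 0.84, and among the other 10 it was 0.86, 0.77, 0.49 and 0.72. Slc12a1 and Slc12a3, the carriers of neighbouring segments, had r = -0.27 and rho = -0.20 (permutation p = 0.352 and 0.468, adjusted 0.546 and 0.680), which was 0.40 among the 7 libraries and -0.68 among the other 10.

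**Figure D4:**
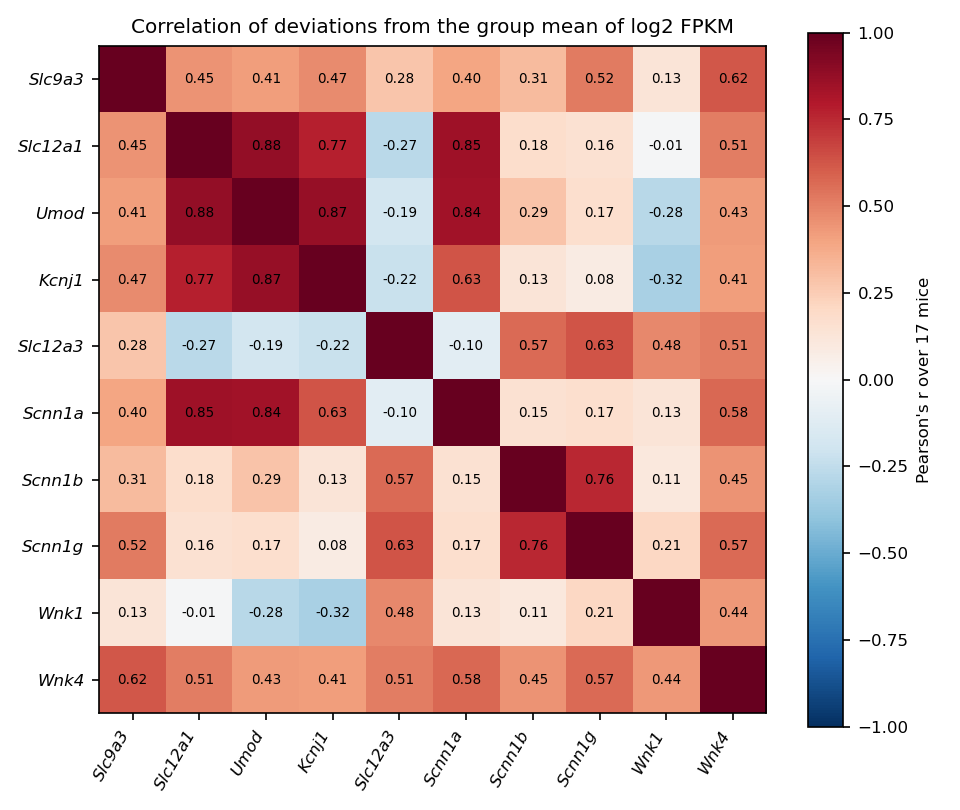
Pearson's r between members over 17 mice, on deviations from the group mean of log2 FPKM, in red where positive and blue where negative. Slc12a1, Umod, Kcnj1 and Scnn1a form a block with r of 0.63 to 0.88, and Scnn1b with Scnn1g reaches 0.76.

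There were 5 ratios within each mouse that set neighbouring genes against each other, free of library scaling, with exact two-sided permutation tests adjusted over 15 tests. None had a q under 0.05, and the smallest p the design allows is 0.00433 for 6 against 5 mice and 0.00216 for 6 against 6, so that a lone ratio in a comparison with Ctrl could not pass over 15 tests. Kcnj1 over Slc12a1 was 0.568 ± 0.168 in Ctrl, 0.456 ± 0.116 in Case and 0.287 ± 0.0993 in Dapa (SD, n = 5, 6 and 6). It differed by -1.004 on the log2 scale in Dapa against Ctrl (exact permutation p = 0.0130, q = 0.130), with 4 of 6 Dapa mice below every Ctrl mouse, and by -0.70 in Dapa against Case (exact permutation p = 0.0216, q = 0.130). Scnn1g over Scnn1a was 2.11 ± 0.808, 1.26 ± 0.317 and 1.18 ± 0.260 in the same order. The difference was -0.71 in Case against Ctrl (exact permutation p = 0.0433, q = 0.162) and -0.79 in Dapa against Ctrl (exact permutation p = 0.0260, q = 0.130). Umod over Slc12a1 was 5.16 ± 0.411, 6.26 ± 1.43 and 4.65 ± 1.41, and Wnk4 over Wnk1 was 2.02 ± 0.345, 2.17 ± 0.469 and 2.46 ± 0.392. Slc12a3 over Slc12a1 was 1.51 ± 0.640, 1.54 ± 1.06 and 1.15 ± 0.493, so its spread within a group exceeded the difference between groups.

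Of 48 further genes of sodium and potassium transport, 47 were tested, and Kcnmb4 was too low. Of these, 9 were called in Case against Ctrl (13.0% of all genes), where 7 stood above Ctrl. There were 22 in Dapa against Ctrl (29.1% of all genes), where 16 stood above. In Dapa against Case there was none with edgeR's quasi-likelihood test (12 at an unadjusted p under 0.05, as were 12.9% of all genes), and 1, Prss8, with DESeq2 or edgeR's exact test. The median log2 fold change over the 47 was -0.01, 0.05 and 0.08 in the order of the comparisons above, beside 0.03, -0.01 and 0.02 over all genes.

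The sodium pump, which powers reabsorption from the basal side of every segment, gave no call of 5 in Case against Ctrl (13.0% of all genes) and 1 in Dapa against Ctrl (29.1%), Atp1b3 (0.38), which was called in 17 of 24 fits. Of 14 other genes of sodium and chloride transport, 3 were called in Case against Ctrl (13.0% of all genes) and 8 in Dapa against Ctrl (29.1%). Bsnd (barttin) was among the latter at 0.69 (SE 0.13), with all 6 Dapa mice above all Ctrl mice. The bicarbonate carrier Slc4a8 was higher in Dapa against Ctrl (1.07), at under 1 FPKM in every mouse. Slc12a2, the cotransporter NKCC1, was lower in Case than in Ctrl (-0.40, SE 0.09), with all 6 Case mice below all Ctrl mice and a call in 26 of 27 fits.

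Other potassium channels and pumps were called in 4 of 9 genes in Case against Ctrl (13.0% of all genes) and in 6 of 9 in Dapa against Ctrl (29.1%). Kcnj10, the Kir4.1 channel of the distal convoluted tubule, was at 10.7 to 15.6 FPKM in Ctrl, 17.2 to 22.6 in Case and 20.1 to 25.6 in Dapa, with log2 fold changes of 0.52 (SE 0.09) and 0.79 (SE 0.10). Kcnq1 had 0.51 and 0.83, and its partner Kcne1 0.82 and 0.88, called in Case against Ctrl in 18 and 25 of 27 fits. Kcnk5, a channel of the proximal tubule, was lower in Case (-0.84, SE 0.15) and in Dapa (-0.48, SE 0.14) than in Ctrl, called in 26 of 27 and 21 of 24 fits. In the WNK pathway the kinase Stk39 (SPAK), which phosphorylates NCC and NKCC2, had 0.62 (SE 0.17, q = 0.0326 from edgeR) and 0.88 (SE 0.17, q = 0.00321). The first of these calls held in 16 of 27 fits (q up to 0.117). It was lost with the replicate block, with the term for the 7 libraries and without both replicates 3. Leaving out Ctrl replicate 1, 3 or 5 or Case replicate 1, 2, 3 or 6 also lost it. The second held in all 24. Klhl3, which marks WNK kinases for breakdown, had 0.27 (q = 0.175) and 0.29 (q = 0.0238), the latter called in 22 of 24 fits. Of the 9 genes, 1 was called in Case against Ctrl (13.0% of all genes) and 3 in Dapa against Ctrl (29.1%), near the shares over all genes, the third being Cab39 (in 23 of 24 fits).

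Of 10 regulators of ENaC, 1 was called in Case against Ctrl (13.0% of all genes) and 4 in Dapa against Ctrl (29.1%), near the shares over all genes. The membrane proteases went opposite ways in Dapa against Ctrl. St14 (matriptase) had 0.74 (SE 0.18) and 0.99 (SE 0.20), and Prss8 (prostasin), which cleaves and opens ENaC, had -0.35 without a call and -1.22 (SE 0.25, q = 0.00402 from edgeR). Prss8 was at 25.0 to 63.0 FPKM in Dapa, below all 6 Case mice at 70.9 to 97.9 FPKM (log2 fold change -0.86, SE 0.20, q = 0.179 from edgeR). The mineralocorticoid receptor Nr3c2 and Hsd11b2, the enzyme that shields it from glucocorticoids, were called in Dapa against Ctrl (0.60 and 0.23), each in 14 of 24 fits. St14 was called in Case against Ctrl in 21 of 27 fits. Sgk1, the aldosterone-induced kinase, had -0.16 (SE 0.25) in Case against Ctrl and 0.46 (SE 0.25) in Dapa against Ctrl. Nedd4l, which removes ENaC from the membrane, had -0.11 (SE 0.14) and -0.19 (SE 0.10), and neither passed. Adrenal markers summed to 0.173 to 0.609 FPKM in Ctrl, 0.704 to 1.93 in Case and 0.613 to 7.67 in Dapa (4 of 6 listed). The high sums were those of 1 gene, Hsd3b1, at up to 7.10 FPKM in Dapa, while Cyp21a1 and Cyp11a1 were at or near 0 in every mouse, at most at 0.0749 FPKM.

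**Figure D5:**
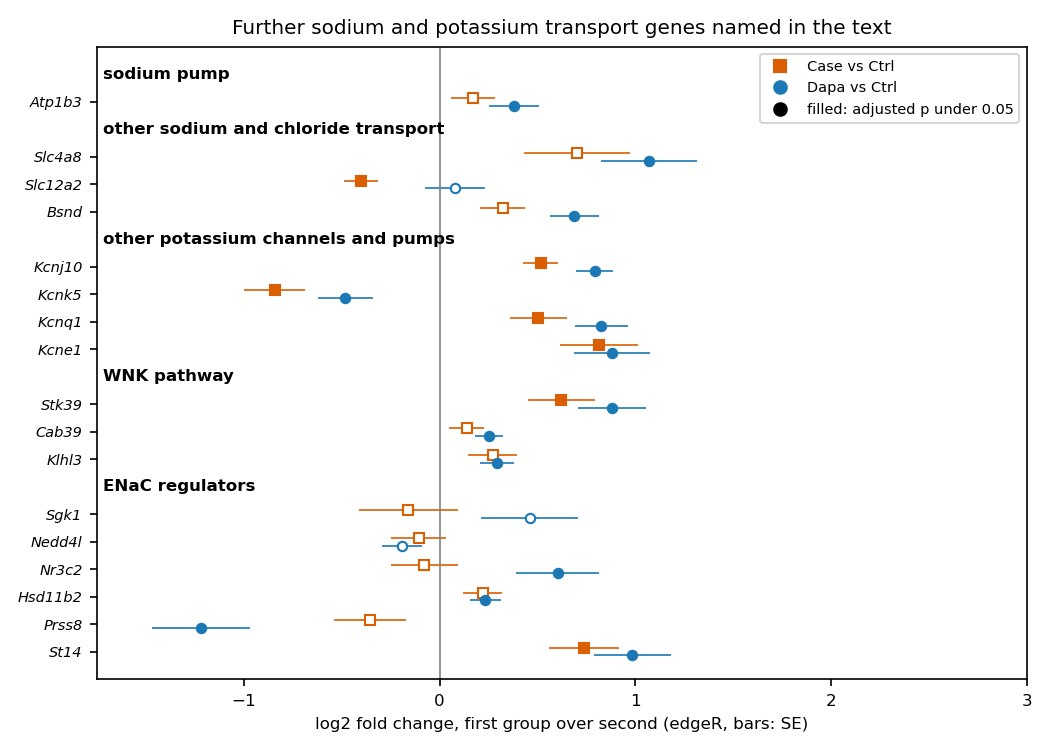
Log2 fold changes with 1 SE of the 17 further transport genes named in the text, in Case against Ctrl (squares) and Dapa against Ctrl (circles), grouped by role, filled where q was under 0.05. These genes were picked in part for being called, and among the filled points Slc4a8 lies farthest to the right and Prss8 farthest to the left.

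The genes most alike in pattern to each member were those with the highest Pearson r on log2(FPKM + 1) over 17 mice, of 11177 genes with a mean of at least 1 FPKM and 10 counts in every mouse. These points share libraries and depth, and no p is given. Unlike the correlations between members above, these r include the differences between group means. On deviations from the group mean some were lower, as for Scnn1b with Med12 (0.70) and Tubb2b (0.67) and Scnn1g with E230016K23Rik (0.59). Others were not, as for Slc12a1 with Pak6 (0.98). They were Pak6 (0.98) and Gpx6 (0.97) for Slc12a1, and Gp2 (0.95) and Kcnk1 (0.95) for Umod. For Kcnj1 they were Scarf1 (0.92) and Zfp950 (0.90). For Scnn1a they were Tanc1 (0.95) and Vamp2 (0.95), for Scnn1b Med12 (0.93) and Tubb2b (0.93), and for Scnn1g its sister subunit Scnn1b (0.92) and E230016K23Rik (0.89). Slc12a3 was nearest to Fgfr1 (0.91) and Fbxl20 (0.90), and Slc9a3 to Siae (0.87) and Drosha (0.84). Wnk1 was nearest to Rhobtb3 (0.91) and Lin52 (0.88), and Wnk4 to Lsm14b (0.93) and Rap2a (0.93).

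Libraries that stood apart touched these results as follows. Summed macrophage markers were 180 FPKM in Case replicate 3 and at most 53.6 FPKM in every other mouse. Summed adipocyte markers were 88.4 FPKM in Ctrl replicate 3 and at most 28.3 FPKM elsewhere. Without both mice no member was called in Case against Ctrl, and Scnn1a had 0.82 (q = 0.0836 from edgeR). Calls over all genes fell there from 1895 to 924. Erythrocyte markers were higher in Case and in Dapa than in Ctrl, with all 5 called, although in Case against Ctrl those calls held in 13 of 27 fits for Hbb-bt (q up to 0.267), in 21 for Hba-a1 and in 25 for Alas2. In Dapa against Ctrl, 6 to 9 members were called over the alternatives, among them the 3 ENaC subunits and Slc9a3 in every one. Group means rose from Ctrl over Case to Dapa in 7 of the 10 members, and in 34.3% of all genes tested. They fell in 1, Slc9a3, and in 16.6% of all genes.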

How the data were processed

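RNA of 17 kidneys, 1 library a mouse, was analysed in the groups of the sample labels. The authors aligned reads to mm10 with HISAT2 (named in the submitters' processing notes) and counted them per gene with Stringtie. The deposited table holds read counts, not normalized, and FPKM values that the authors computed. FPKM matched count, length and library total (largest deviation 0.00147%), with no TMM factor in them. Of 22561 genes, 3 were left out because each was split over 2 lines. Their FPKM departed from their counts in 7 libraries (Ctrl 1, 3 and 4, Case 1, Dapa 10, 11 and 12), by factors of 0.725 to 1.03, so these were treated as a possible batch. No libraries of a group were duplicates (lowest chi-square per gene 15.0). Depth was 13039535 to 17779635 counts. That replicates are separate mice comes from the study's methods.

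The quasi-likelihood test of edgeR 4.0.16 (R 4.3.3) was run on counts after filterByExpr and TMM scaling. Each comparison was fitted on its own groups, with p-values adjusted over all genes by Benjamini-Hochberg. Called means q under 0.05, and counts of fits include the one reported. Python 3.11.15 served for ratios, correlations and figures (scipy 1.17.1, numpy 2.4.6, pandas 2.3.3, matplotlib 3.10.9). On simulated data for Case against Ctrl, 95.4% of 196 genes changed 4-fold were recovered. Alternative fits used DESeq2 1.42.0, the exact test of edgeR, limma 3.58.1 on log2(FPKM + 1) and log2(FPKM + 0.1), other scalings and filters, all groups in 1 fit, a term for the 7 libraries, replicate numbers as a block, or all mice but 1. The fits on mice 1 to 5 without the block and without both replicates 3 were added after the data were seen.

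Named were the members, up to 8 called pathway genes a comparison by size of change, Sgk1, Nedd4l, Stk39 and Klhl3, up to 3 called markers a list, and the 2 genes most alike to each member. Slc12a2, Bsnd, Atp1b3, Kcnk5, Nr3c2, Hsd11b2, Cab39, Prss8 and the markers that were not called were named in comparisons outside that rule, after their values were seen. Some genes that the rule names are not reported here. The members, the gene lists and the ratios were chosen with earlier results of these data known. Promoter sequences are those of RefSeq on GRCm38.p6, without the bases after the start.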

Additional observations from a re-analysis of the deposited data

Results flagged for a closer look

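One of 45 groups of values, over the 10 members and 5 ratios in 3 groups, had a mouse set apart from the rest by Dixon's test at the 95% level, where chance sets apart about 1 group in 20. Slc12a3 was at 199 FPKM in Dapa replicate 11, the lowest of its group, while the other Dapa mice were at 247 to 273 FPKM. The gap took up 0.640 of the range. Leaving this mouse out left Slc12a3 called in Dapa against Ctrl.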

How the results depend on the processing

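In Case against Ctrl the members called numbered 2, and 0 with the replicate block, 1 with the term for the 7 libraries and 0 without both replicates 3. Leaving out 1 mouse gave 0 to 2. Of the pathway list, 9 were called, with 4 under the block, 5 with the term for the 7 libraries and 5 without both replicates 3, and 5 to 13 when 1 mouse was left out. The block used mice 1 to 5 of each group and called 699 genes, where the same mice without it gave 1615 genes, 2 members and 7 pathway genes. Same-numbered mice of Case and Ctrl did not deviate together (r of -0.08 to -0.05), so the numbers do not pair them. In Dapa against Case the pathway list had 0 called, and 1 (Prss8) with DESeq2 and 1 with edgeR's exact test. In Dapa against Ctrl, 6 to 9 members and 16 to 25 pathway genes were called over the alternatives, against 7 and 22. Values near 0 changed sign, none of them past a threshold. Kcnj1 in Case against Ctrl was -0.0053 without both replicates 3 and 0.038 to 0.294 without 1 mouse. Klhl3 in Dapa against Case was -0.0309 to 0.130, Nedd4l -0.150 to 0.0359 and Hsd11b2 -0.0232 to 0.0962 without 1 mouse, and Slc12a2 in Dapa against Ctrl -0.0516 to 0.167. The ratio Slc12a3 over Slc12a1 in Case against Ctrl differed by 0.0256 as the ratio itself and by -0.417 to 0.0609 on the log2 scale when a mouse was left out, and in Dapa against Case by -0.448 to 0.0208. Scnn1g over Scnn1a in Dapa against Case gave -0.222 to 0.00968, and Wnk4 over Wnk1 in Case against Ctrl -0.00734 with medians and -0.00277 to 0.181 without a mouse. No other ratio changed direction. Leaving out a mouse raises the smallest p these tests can give, so their q there says nothing about stability. The cause of these changes was not tested. Scaling by library total alone moved the median log2 fold change of all genes to 0.11 in Case against Ctrl and 0.12 in Dapa against Ctrl, and the calls to 1241 higher and 694 lower (888 and 1007 with TMM), and to 3049 and 1391 (2073 and 2187). Changes of the members should be read against that shift.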
